A study of Mus musculus with 49 samples.

Results

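The transcripts of the ionotropic glutamate receptors of the AMPA and NMDA type were examined in 3 hippocampal cell layers of mice with and without mutant human tau. The members were fixed by name as the AMPA receptor subunits Gria1, Gria2, Gria3 and Gria4 and the NMDA receptor subunits Grin1, Grin2a, Grin2b, Grin2c and Grin2d. Every probe set annotated to 1 of these 9 genes was used, called or not. Probe sets were listed for 8 of the 9 genes, 11 probe sets of the 22626 tested and 8 genes of the 11807 named. Grin1, the obligatory NMDA receptor subunit, had no listed probe set and was not analysed here.

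Expression was measured on 49 Affymetrix HT-MG-430A arrays from 17 mice, all female and 6.1 months old. Frozen brain sections had been laser-captured for the pyramidal layers of CA1 (16 arrays) and CA3 (16 arrays) and for the dentate granule cells (DG, 17 arrays). The mice came from a cross of a TRE responder line for human tau carrying the P301L mutation, on FVB/N, with a CaMKIIα-tTA activator line, on 129S6. DN mice carried neither transgene (6 mice), tTA mice the activator alone (5 mice) and rTg4510 mice the activator with the tau responder (6 mice). The CaMKIIα promoter drives the activator in excitatory forebrain neurons, so both transgenic groups express tTA there and rTg4510 mice express the tau transgene there as well. In the order DN, tTA and rTg4510, the arrays numbered 6, 5 and 5 for CA1, 5, 5 and 6 for CA3, and 6, 5 and 6 for DG. Carriers of the tau transgene alone were not among these arrays, so mutant tau and the insertion of its transgene cannot be told apart.

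AMPA receptors are tetramers that carry most of the fast current at excitatory synapses, and the GluA2 subunit encoded by Gria2 keeps them from passing calcium. NMDA receptors combine the subunit encoded by Grin1 with Grin2 subunits, open only when glutamate arrives at a depolarised membrane, and admit the calcium that triggers synaptic plasticity. In the adult hippocampus pyramidal and granule cells use mainly Gria1, Gria2, Grin2a and Grin2b, while Grin2c is best known from cerebellar granule cells and is also found in astrocytes, and Grin2d from interneurons.

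All values are log2 intensities, where 1 unit equals a 2-fold change, and errors are SD over mice unless named as SE. A level can be compared between groups for 1 probe set but not between probe sets. A probe set was called where limma gave a Benjamini-Hochberg adjusted p below 0.05 over all tested probe sets. A group mean below 5.039, the median over all probe sets, is called dim, and differences of dim probe sets are likely to be understated.

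The captured layers of DN mice matched their labels. In DN mice the mean over the CA1 pyramidal markers (2 of 5 measured, Wfs1 and Pou3f1) was 10.95 in CA1, 6.43 in CA3 and 7.57 in DG, that over the CA3 markers (4 of 5) was 8.16 in CA3, 5.94 in CA1 and 6.05 in DG, and that over the dentate granule markers (7 of 10) was 7.76 in DG, 5.46 in CA1 and 4.46 in CA3. In single DN arrays the CA1 marker mean ran from 6.11 to 6.80 in CA3. In tTA mice it spread more widely, from 9.90 to 10.715 in CA1, 5.95 to 8.44 in CA3 and 6.19 to 7.81 in DG. In rTg4510 mice it ran from 7.83 to 9.50 in CA1, 5.72 to 7.32 in CA3 and 5.65 to 6.28 in DG. The array least like its own group was CA1 of tTA mouse4592, with a mean correlation of 0.976 to the other arrays of the group. The DN mice, mouse4797 to mouse4886, were numbered apart from the transgenic mice, mouse4535 to mouse4666, and no batch was given, so any batch that follows these numbers and the contrast with DN cannot be told apart.

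In the mouse genome (GRCm38.p6) Gria1 lies at chr11:57011571-57330244, Gria2 at chr3:80681450-80804227, Gria3 at chrX:41400819-41678601 and Gria4 at chr9:4417893-4796234. Of the NMDA subunits, Grin2a lies at chr16:9567901-9996083, Grin2b at chr6:135713221-136173615, Grin2c at chr11:115249169-115267297 and Grin2d at chr7:45831883-45871194.

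Gria2, by the brighter of its 2 probe sets, was called lower and Grin2c called higher in tTA than in DN mice in all 3 subfields. Grin2a and the brightest Grin2b probe set were called lower in all 3 as well. Not all of these calls held under other settings, as given below. The start regions of Gria2 and Grin2c are shown. Each run holds the 250 bases before and 50 after an annotated start, from RefSeq on GRCm38.p6, for which 5 of the 9 members had an entry. The Gria2 window lies wholly inside the gene interval given above, so its start is not the outer end of that interval. Capitals mark matches on either strand to the GC box GGGCGG or to the NRF1 motif, and the cyclic AMP response element TGACGTCA was searched as well.
Gria2, minus strand, chr3:80802786-80803085: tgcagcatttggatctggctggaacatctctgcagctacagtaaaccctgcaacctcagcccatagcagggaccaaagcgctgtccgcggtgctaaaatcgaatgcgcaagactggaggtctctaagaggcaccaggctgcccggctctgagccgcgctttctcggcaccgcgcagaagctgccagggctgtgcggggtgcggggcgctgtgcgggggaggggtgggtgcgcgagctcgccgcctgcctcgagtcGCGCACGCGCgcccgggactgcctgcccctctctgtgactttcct
Grin2c, minus strand, chr11:115267194-115267493: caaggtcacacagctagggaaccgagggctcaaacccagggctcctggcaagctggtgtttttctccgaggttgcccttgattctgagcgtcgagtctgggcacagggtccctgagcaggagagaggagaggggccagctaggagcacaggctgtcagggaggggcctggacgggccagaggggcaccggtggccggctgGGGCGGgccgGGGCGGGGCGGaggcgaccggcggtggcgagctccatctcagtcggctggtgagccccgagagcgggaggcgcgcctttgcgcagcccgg
Both windows were rich in G and C, 65.7% in Gria2 and 70.0% in Grin2c. The Gria2 window held 1 NRF1 match and 0 GC boxes, and the Grin2c window held 3 GC boxes and 0 NRF1 matches, with no match of 1 motif overlapping that of another and none to the cyclic AMP response element in either. Over all 32851 promoter windows of this length, 35.7% held the GC box, 4.6% the NRF1 motif and 1.8% the cyclic AMP response element. The matches describe letters in these windows and were not tied to the array values.

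The first comparison was between subfields of mice without a transgene. In DN mice the main receptor subunits were highest in CA1. Between CA1 and CA3, 5 of the 11 probe sets were called, all higher in CA1, where 12.9% of all tested probe sets were called in either direction. Between CA1 and DG 6 were called, all higher in CA1 (background 17.5%). Between CA3 and DG 2 were called (background 21.7%), Gria3 higher and the second Gria1 probe set lower in CA3, the latter lost without DN mouse4825 (adjusted p = 0.0668). Over the 8 genes, each by its brightest probe set, the median difference of CA1 was 0.30 against CA3 and 0.42 against DG, beside −0.02 and −0.01 over all probe sets.

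**Figure D1:**
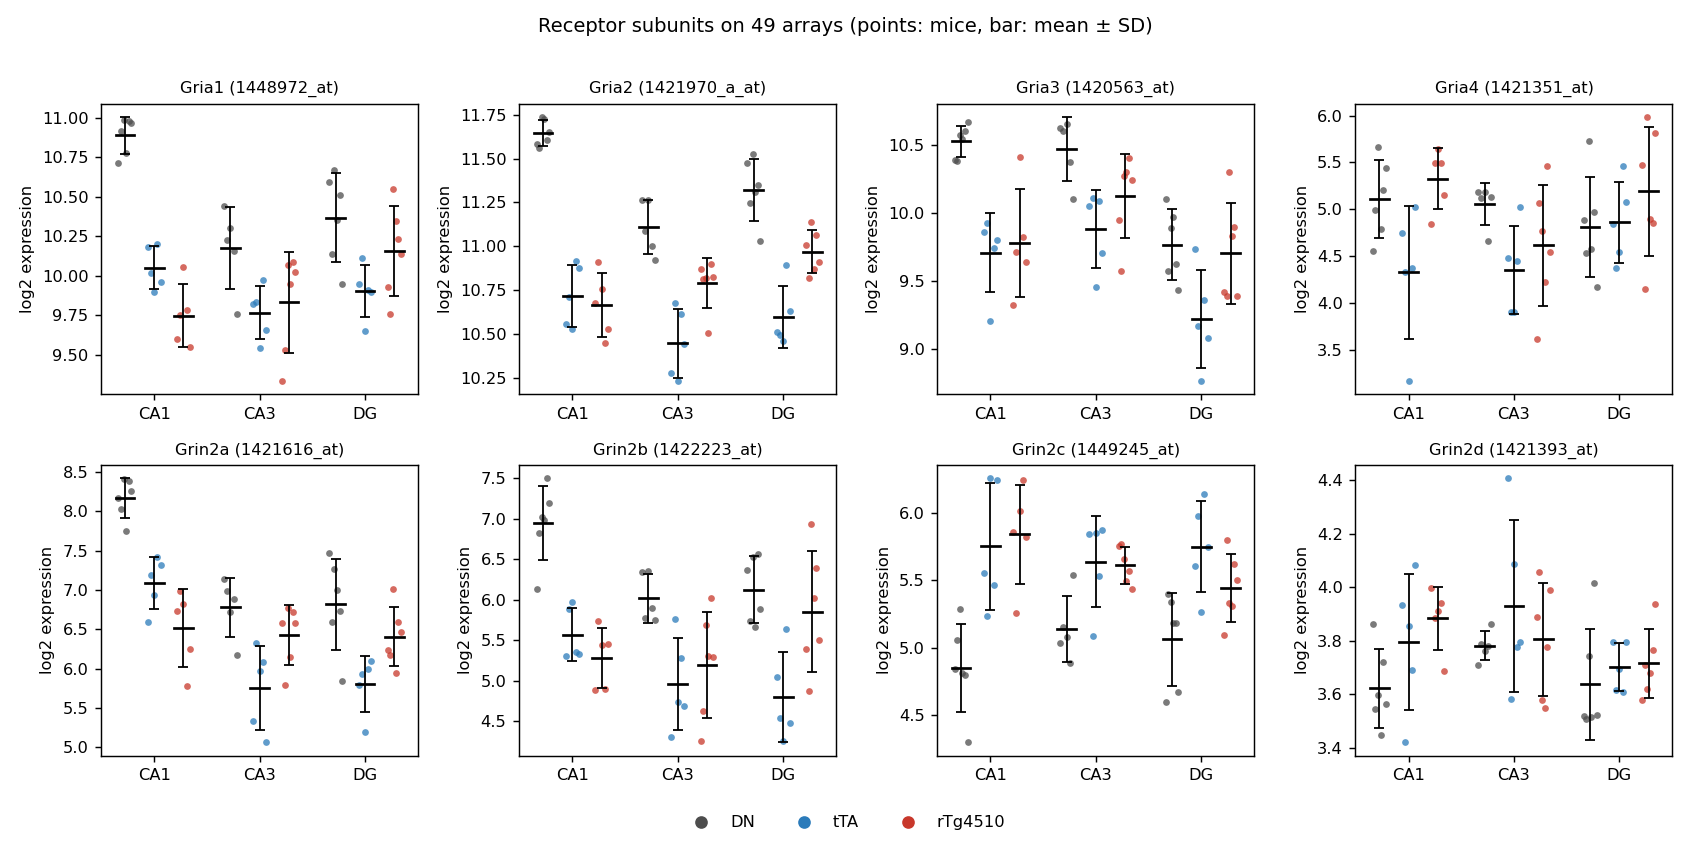
Log2 expression (y axis) of the brightest probe set of each of the 8 measured subunits in CA1, CA3 and DG (x axis) of DN, tTA and rTg4510 mice. Each point is 1 mouse and bars give mean ± SD over 5 or 6 mice. For Gria1, Gria2, Grin2a and Grin2b all DN mice lie above all tTA and rTg4510 mice in CA1, and the Grin2c mean of CA1 is lowest in DN mice (4.85).

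Grin2a, the subunit of adult NMDA receptors with fast decay, showed the largest step between subfields among the members in DN mice. It ran from 7.75 to 8.41 (median 8.22) in the 6 CA1 arrays, from 6.17 to 7.14 in the 5 CA3 arrays and from 5.84 to 7.47 (median 6.86) in the 6 DG arrays. CA1 overlapped with neither of the other layers. The fitted differences were 1.40 against CA3 (SE 0.23, adjusted p = 9.54e-06) and 1.35 against DG (SE 0.22, adjusted p = 4.55e-06), and CA3 and DG, at −0.04 (95% interval −0.51 to 0.42), did not pass the test. Gria1 was higher in CA1 than in CA3 by 0.72 and 0.96 in its 2 probe sets and higher than in DG by 0.52 in both. By its brightest probe set Gria2 was higher in CA1 by 0.54 against CA3 and 0.32 against DG. Its second probe set stood at 0.21 and −0.23, neither called. Grin2b was higher in CA1 by 0.93 and 0.82 by its brightest probe set. The Grin2b calls were the less firm of these: without DN mouse4825, mouse4883 or mouse4886 the first was lost, and without mouse4806, mouse4866, mouse4883 or mouse4886 the second (highest adjusted p 0.129). Gria3 had another order, with CA1 and CA3 together (difference 0.06, interval −0.26 to 0.38) and both above DG, by 0.76 and 0.70. Gria4, Grin2c and Grin2d were not called between any pair of subfields in DN mice.

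The tTA mice carry no tau transgene, and they were compared with DN mice. The activator, the insertion of its transgene and any batch that follows the mouse numbers cannot be told apart here. In CA1, 7 of the 11 probe sets were called, 6 lower and 1 higher, where 16.2% of all probe sets were called and 8.85% called lower. In CA3 5 were called, 4 lower and 1 higher (background 9.09%, 4.97% lower), and in DG 6 were called, 5 lower and 1 higher (background 16.7%, 9.44% lower). The median over the 8 genes was −0.83 in CA1, −0.63 in CA3 and −0.51 in DG, beside 0.05, 0.03 and 0.03 over all probe sets. The same probe set, that of Grin2c, was the 1 called higher in each subfield. With the RNA quality covariate described below, fewer of the 11 probe sets were called in CA3 and DG.

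The rTg4510 mice were set against DN mice and against tTA mice, and the 3 genotype contrasts of a subfield share their groups, so their values are given side by side. Against DN mice 7 probe sets were called in CA1, 6 lower and 1 higher (background 23.4%, 12.3% lower), 0 in CA3 (background 3.12%) and 2 in DG, both lower (background 8.86%). By an unadjusted p below 0.05, 5 passed in CA3, of which 1 was higher. Against tTA mice 1 was called in CA1, higher (background 10.6%), 0 in CA3 (background 1.13%) and 0 in DG (background 0.782%). By an unadjusted p below 0.05, 4 passed against tTA in CA1, 1 of them higher, 2 in CA3 and 4 in DG, the latter 6 all higher. In captured tissue fewer cells of a type and less RNA per cell cannot be told apart.

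**Figure D2:**
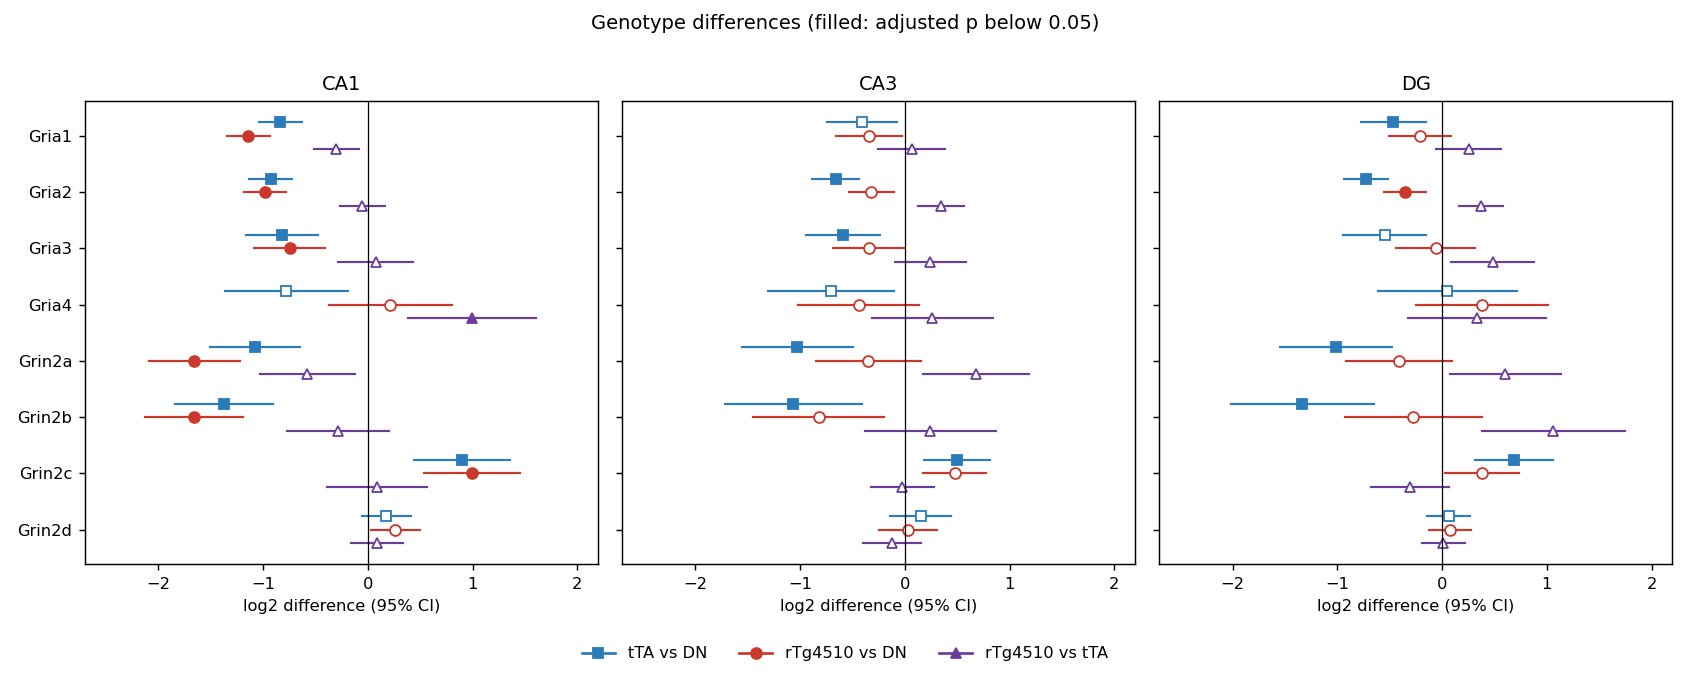
Log2 differences between genotypes (x axis, with 95% confidence intervals from limma) for the brightest probe set of each subunit (y axis) in CA1, CA3 and DG. Filled marks have an adjusted p below 0.05. In CA1 both transgenic groups lie left of 0 for Gria1, Gria2, Gria3, Grin2a and Grin2b, and in DG the rTg4510 versus tTA intervals of Gria2, Gria3, Grin2a and Grin2b lie right of 0 but are not filled.

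Gria1 encodes the AMPA receptor subunit that activity brings to CA1 synapses. In CA1 its brightest probe set ran from 10.71 to 10.99 (median 10.94) in the DN mice. The tTA mice stood at 9.90, 9.96, 10.02, 10.18 and 10.20, and the rTg4510 mice at 9.55, 9.60, 9.75, 9.79 and 10.05. All DN mice thus lay above all transgenic mice, while tTA and rTg4510 mice overlapped. Gria1 was 1.79-fold lower in tTA than in DN mice (difference −0.84, SE 0.10, adjusted p = 6.46e-05) and 2.21-fold lower in rTg4510 mice (difference −1.14, SE 0.10, adjusted p = 1.43e-06). Between rTg4510 and tTA mice the differences of its 2 probe sets, −0.30 (interval −0.52 to −0.09, adjusted p = 0.067) and −0.45 (−0.74 to −0.15, adjusted p = 0.0532), did not pass the test.

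Outside CA1 Gria1 differed less from DN mice, though its tTA response was not called different between subfields in the test given below. In CA3 none of its contrasts passed, with −0.41 for tTA (adjusted p = 0.113) and −0.35 for rTg4510 mice (adjusted p = 0.251) against DN. In DG both probe sets were lower in tTA mice, by −0.47 (adjusted p = 0.0385) and −0.53 (adjusted p = 0.0238), and the second was also lower in rTg4510 mice (−0.54, adjusted p = 0.0277) while the first was not called (−0.21). These DG calls were lost with the RNA quality covariate described below, and each of them was lost without DN mouse4797 or mouse4825. That of the first probe set was lost without 8 of 11 mice in all, DN mouse4866 and mouse4883 and tTA mouse4570, mouse4592, mouse4626 and mouse4637 being the others, that of the second also without tTA mouse4592, and its rTg4510 call also without rTg4510 mouse4535 or mouse4666 (adjusted p up to 0.103).

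Gria2, whose subunit sets the calcium permeability of AMPA receptors, separated the DN mice of CA1 clearly from the others. By its brightest probe set it ran from 11.56 to 11.74 (median 11.63) in DN mice. It stood at 10.53, 10.55, 10.71, 10.87 and 10.92 in tTA mice and at 10.45, 10.53, 10.68, 10.76 and 10.91 in rTg4510 mice. The 2 transgenic groups covered nearly the same range, well apart from the DN mice. It was 1.90-fold lower in tTA mice (difference −0.93, SE 0.10, adjusted p = 2.77e-05) and 1.97-fold lower in rTg4510 mice (−0.98, SE 0.10, adjusted p = 4.56e-06), and the difference between these 2 was −0.05 (interval −0.27 to 0.16).

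In CA3 and DG the mean of rTg4510 mice lay between those of the other genotypes for the brightest Gria2 probe set. The CA3 means of DN, rTg4510 and tTA mice were 11.11 ± 0.15 (n = 5), 10.79 ± 0.14 (n = 6) and 10.45 ± 0.20 (n = 5), and the DG means were 11.32 ± 0.18 (n = 6), 10.97 ± 0.12 (n = 6) and 10.60 ± 0.18 (n = 5). The tTA mice were below DN mice in both (1.58-fold, adjusted p = 0.0017, and 1.65-fold, adjusted p = 0.000147), with no overlap. The rTg4510 mice were called lower than DN in DG (−0.35, adjusted p = 0.0283), a call lost without any 1 of 6 mice (DN mouse4797, mouse4825 and mouse4883, and rTg4510 mouse4549, mouse4621 and mouse4666) and with the RNA quality covariate, and were not called in CA3 (−0.32, adjusted p = 0.105). They exceeded tTA mice by 0.34 in CA3 and 0.37 in DG, which did not pass the test (adjusted p = 0.12 and 0.0825).

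Gria3, which forms receptors with the Gria2 subunit, followed the same course in CA1. It ran from 10.39 to 10.67 (median 10.56) in DN mice, against 9.21, 9.74, 9.80, 9.86 and 9.93 in tTA mice and 9.33, 9.64, 9.71, 9.83 and 10.41 in rTg4510 mice. Only 1 rTg4510 mouse reached the DN range. The falls were 1.76-fold in tTA (adjusted p = 0.00317, lost with the RNA quality covariate) and 1.68-fold in rTg4510 mice (adjusted p = 0.00291). In CA3 it was lower in tTA mice (−0.59, adjusted p = 0.0374), a call lost without any 1 of 6 mice (DN mouse4797, mouse4825, mouse4866 and mouse4883, and tTA mouse4592 and mouse4637), and in DG the tTA difference was −0.55 (adjusted p = 0.0559).

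Gria4, an AMPA subunit typical of interneurons and of early development, was close to the level called dim throughout. It was the 1 member called between rTg4510 and tTA mice. In CA1 the tTA mice stood at 3.17, 4.33, 4.38, 4.75 and 5.03 and the rTg4510 mice at 4.84, 5.15, 5.50, 5.50 and 5.64. The lowest rTg4510 mouse lay below the highest tTA mouse. The difference was 0.997 (SE 0.29, adjusted p = 0.0364), from a dim tTA mean of 4.33. Against DN mice (mean 5.11) the rTg4510 difference was 0.22 (interval −0.37 to 0.80) and the tTA difference −0.78 (adjusted p = 0.0645). The call did not last: leaving out 1 mouse ended it for 7 of 10 mice (rTg4510 mouse4549, mouse4600, mouse4653 and mouse4666, and tTA mouse4580, mouse4592 and mouse4626), with adjusted p up to 0.0746, and 5 of the 8 other settings ended it as well.

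Grin2a, the first of the NMDA receptor subunits, fell in CA1 of both transgenic groups. Beside the DN range of 7.75 to 8.41, the tTA mice stood at 6.59, 6.94, 7.19, 7.32 and 7.41 and the rTg4510 mice at 5.78, 6.25, 6.73, 6.82 and 6.98. The DN mice overlapped with neither group. The tTA mice were 2.11-fold lower (−1.08, SE 0.20, adjusted p = 0.00252) and the rTg4510 mice 3.15-fold lower (−1.66, SE 0.20, adjusted p = 2.98e-05), and the step from tTA to rTg4510, −0.58 (interval −1.03 to −0.13, adjusted p = 0.0975), did not pass. In CA3 and DG Grin2a was 2.04-fold and 2.02-fold lower in tTA than in DN mice (adjusted p = 0.0174 and 0.0106), while rTg4510 mice, at −0.35 and −0.41, were not called. The CA3 call was lost without DN mouse4797 (adjusted p = 0.0516) and with the RNA quality covariate.

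Grin2b, the subunit of slower NMDA receptors that binds CaMKII, ran from 6.14 to 7.50 (median 7.0) in the DN mice of CA1. The tTA mice stood at 5.30, 5.33, 5.35, 5.88 and 5.97 and the rTg4510 mice at 4.88, 4.90, 5.44, 5.45 and 5.73. Every DN mouse lay above every transgenic mouse. These were falls of 2.60-fold (adjusted p = 0.000819) and 3.17-fold (adjusted p = 5.54e-05). In DG tTA mice were at 4.25, 4.48, 4.54, 5.04 and 5.64, below the lowest DN mouse at 5.66, and 2.52-fold lower on average, from a dim tTA mean of 4.79 (adjusted p = 0.00905, lost with the RNA quality covariate and with the methods' LSD test on anti-log values). The rTg4510 mice of DG spread from 4.88 to 6.93 (median 5.76) across the ranges of both other groups, 1.06 above tTA (interval 0.38 to 1.74, adjusted p = 0.117) and −0.27 from DN (interval −0.93 to 0.38). In CA3 the tTA fall was 2.09-fold (adjusted p = 0.0414), from a dim tTA mean of 4.95, and leaving out 1 mouse ended it for 7 of 10 mice (DN mouse4797, mouse4825, mouse4866 and mouse4883, and tTA mouse4570, mouse4592 and mouse4637).

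Grin2c was the member that rose against DN mice. In CA1 it ran from 4.30 to 5.29 (median 4.83, a dim group) in DN mice, against 5.24, 5.47, 5.56, 6.24 and 6.26 in tTA mice and 5.26, 5.82, 5.86, 6.02 and 6.25 in rTg4510 mice. The lowest mouse of each transgenic group just met the highest DN mouse. It was 1.87-fold higher in tTA (0.90, SE 0.22, adjusted p = 0.0107) and 1.99-fold higher in rTg4510 mice (0.99, SE 0.22, adjusted p = 0.00319). In DG it was 1.61-fold higher in tTA mice (adjusted p = 0.0129), and in CA3 1.41-fold (adjusted p = 0.046, lost without 8 of 10 mice, all but DN mouse4886 and tTA mouse4580, and under 6 of 9 other settings). The tTA calls in CA1 and DG were lost with the RNA quality covariate. The rTg4510 mice were 0.47 above DN in CA3 (adjusted p = 0.083) and 0.38 above DN in DG (adjusted p = 0.186), neither called, and no contrast between rTg4510 and tTA mice passed.

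Grin2d, the remaining NMDA subunit, was dim in all 9 groups, with means from 3.62 to 3.93, and was not called in any comparison. Its largest difference between genotypes was 0.26, between rTg4510 and DN mice in CA1 (adjusted p = 0.1).

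The model over all 49 arrays also compared the response to genotype from 1 subfield to another. For rTg4510 against tTA mice, CA1 minus CA3 was called for 1 probe set (background 3.88%) and CA1 minus DG for 3 (background 5.45%), all negative, and CA3 minus DG for 0 (background 0.00884%, unadjusted p below 0.05 for 1). The Grin2a response was −1.27 in CA1 relative to CA3 (SE 0.33, adjusted p = 0.0221) and −1.20 relative to DG (SE 0.33, adjusted p = 0.0237). Relative to DG, Gria2 responded by −0.43 (SE 0.13, adjusted p = 0.0392) and Grin2b by −1.34 (SE 0.41, adjusted p = 0.0448). The calls rest on few mice. Without rTg4510 mouse4653 or mouse4666 all 4 were lost (adjusted p up to 0.145), and without tTA mouse4592 all 3 against DG were lost (up to 0.161). Leaving out rTg4510 mouse4535 or mouse4600 or tTA mouse4580 or mouse4637 ended those of Gria2 and Grin2b, rTg4510 mouse4621 that of Grin2b, tTA mouse4637 that of Grin2a against CA3 and tTA mouse4626 that of Grin2a against DG. Without the replicate block that ties arrays of 1 mouse, those of Gria2 and Grin2b were lost too (adjusted p of Gria2 = 0.0812). Both were also lost with array weights, and that of Grin2b with a fixed replicate block (adjusted p of Grin2b up to 0.136).

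For tTA against DN mice, 0 of the 11 probe sets responded differently between subfields, over CA1 minus CA3 (background 0.720%), CA1 minus DG (background 1.65%) and CA3 minus DG (background 1.24%). By an unadjusted p below 0.05, 3, 2 and 0 passed. The intervals remain wide, such as −0.72 to 0.59 for Grin2a and −0.46 to 0.05 for Gria2 in CA1 minus DG.

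The response of rTg4510 against DN mice was compared between subfields in the same model, a test added after the values had been seen. CA1 minus CA3 was called for 4 probe sets (background 6.05%) and CA1 minus DG for 5 (background 5.70%), all negative, and CA3 minus DG for 0 (background 1.18%, unadjusted p below 0.05 for 1). Gria1 responded by −0.79 and −1.05 in its 2 probe sets relative to CA3 and by −0.93 and −0.78 relative to DG. Gria2 responded by −0.67 (SE 0.13, adjusted p = 0.000443) and −0.64 (SE 0.12, adjusted p = 0.000559), Grin2a by −1.33 (adjusted p = 0.00733) and −1.26 (adjusted p = 0.00964), and Grin2b by −1.39 relative to DG (adjusted p = 0.0257). The calls of Gria1 and Gria2 held without any 1 mouse, those of Grin2a were lost without rTg4510 mouse4653 (adjusted p = 0.0537 and 0.0618), and that of Grin2b without any 1 of 6 mice (DN mouse4806, mouse4866, mouse4883 and mouse4886, and rTg4510 mouse4600 and mouse4653).

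**Figure D3:**
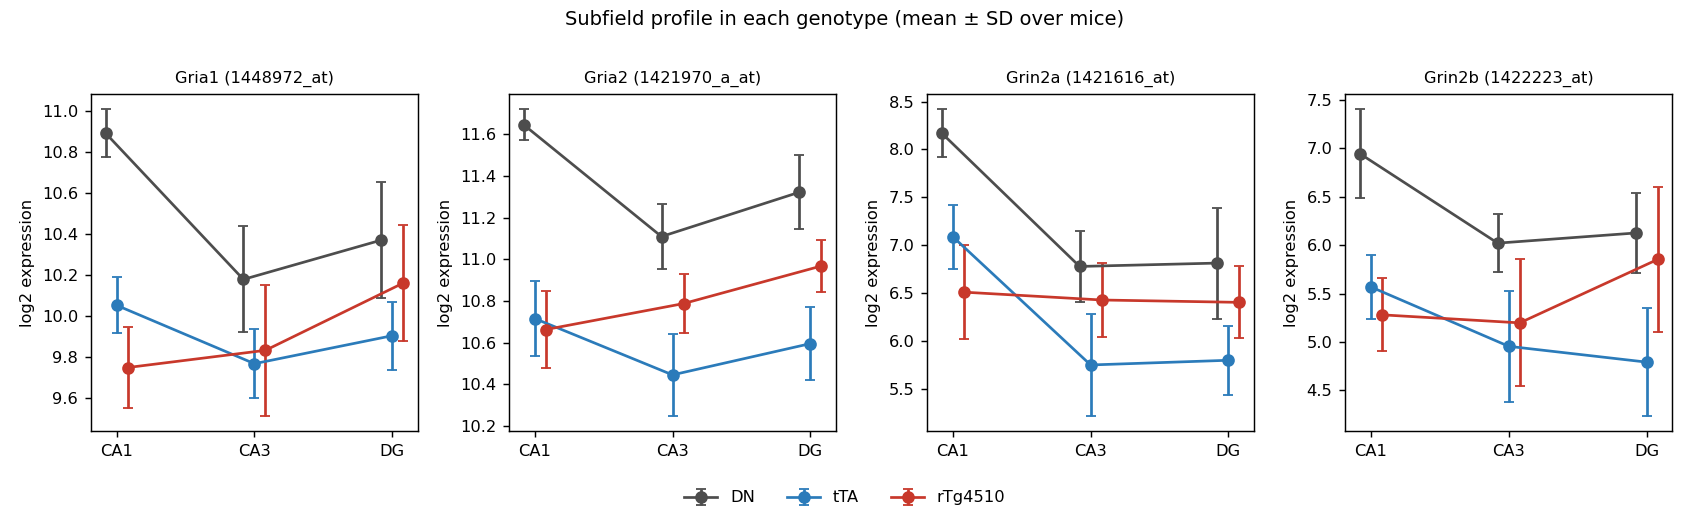
Mean log2 expression ± SD (y axis) of Gria1, Gria2, Grin2a and Grin2b in CA1, CA3 and DG (x axis), with a line for each genotype over 5 or 6 mice. The DN line has its peak in CA1 for all 4 genes, the tTA line of Grin2a has a CA1 step over CA3 of 1.34 beside 1.40 in DN mice, and the rTg4510 lines of Gria1 and Gria2 rise from CA1 to DG.

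Subfields were also compared within the transgenic groups. In tTA mice 3 probe sets were called between CA1 and CA3 (background 12.7%), the second of Gria1 (0.46), Gria2 (0.27) and Grin2a (1.34), all higher in CA1. Between CA1 and DG 2 were called (background 15.9%), Gria3 (0.49) and Grin2a (1.29), and between CA3 and DG 1 (background 17.9%), Gria3 (0.66). The calls of Grin2a and that of Gria3 against DG from CA3 held without any 1 tTA mouse. Those of Gria1 were lost without mouse4626 or mouse4637, of Gria2 without any of the 5 mice but mouse4580, and of Gria3 in CA1 without mouse4580, mouse4626 or mouse4637 (adjusted p up to 0.181). In rTg4510 mice 0 were called between CA1 and CA3 (background 15.0%, unadjusted p below 0.05 for 2), and Grin2a, the subunit with the largest DN step, stood at 0.07 (interval −0.40 to 0.53). Between CA1 and DG of rTg4510 mice 2 were called (background 12.5%), both lower in CA1, Gria1 by −0.40 (adjusted p = 0.0238) and Gria2 by −0.31 (adjusted p = 0.0147). Both were lost without rTg4510 mouse4653 or mouse4666, and that of Gria1 without mouse4621 (adjusted p up to 0.134). Between CA3 and DG 2 were called (background 19.1%), Gria3 higher (0.42) and Gria1 lower (−0.33) in CA3, each lost without 4 of the 6 mice (mouse4535, mouse4653 and mouse4621 for both, with mouse4666 for Gria3 and mouse4600 for Gria1).

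Of the 8 genes 3 were read by more than 1 probe set, and these did not always move alike. Over the 49 arrays the 2 probe sets of Gria1 correlated at r = 0.88, and at 0.61 once group means were removed. For Gria2 the second probe set, at means from 7.02 to 7.46, correlated with the brightest at 0.03. Its differences between tTA and DN mice were 0.06 in CA1, 0.06 in CA3 and −0.00 in DG, where the brightest fell. Between rTg4510 and DN mice they were −0.11 in CA1, 0.39 in CA3 and −0.02 in DG. The second probe set of Grin2b was dim in every group, at means from 2.95 to 3.10, and correlated with the brightest at 0.08. Neither of these second probe sets was called in any comparison. Arrays share mice and groups, so these correlations only describe the probe sets.

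**Figure D4:**
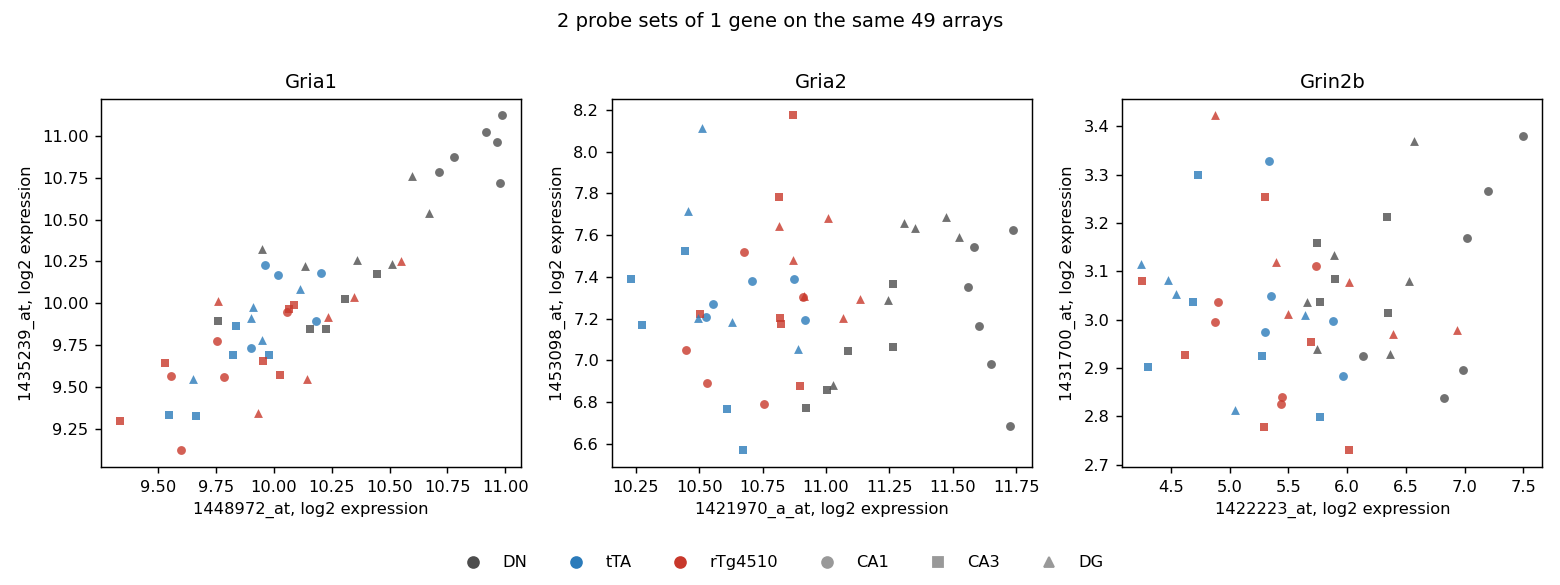
Log2 expression of the second probe set (y axis) against the brightest (x axis) of Gria1, Gria2 and Grin2b on the same 49 arrays. Colours mark the genotype and symbols the subfield. The Gria1 pair rises together (r = 0.88), while the second probe sets of Gria2 (r = 0.03) and Grin2b (r = 0.08) show no such slope.

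Pairs of subunits were also set against each other within an array, where only the change between groups has a meaning. Gria2 minus Gria1 was 0.75 ± 0.13 in DN, 0.66 ± 0.20 in tTA and 0.91 ± 0.22 in rTg4510 mice of CA1, with ranges that overlapped. Grin2a minus Grin2b was 1.22 ± 0.46, 1.52 ± 0.48 and 1.23 ± 0.43 in the same groups. In the same order of genotypes, Gria2 minus Gria1 was 0.93, 0.68 and 0.95 in CA3 and 0.95, 0.69 and 0.81 in DG. Grin2a minus Grin2b was 0.76, 0.80 and 1.23 in CA3 and 0.69, 1.01 and 0.55 in DG. These shifts were not tested. Over all 49 arrays the brightest probe sets of Gria1, Gria2, Grin2a and Grin2b correlated at 0.77 to 0.86 with each other, and at 0.43 to 0.69 with group means removed, while Grin2c correlated with Gria2 at −0.70 and at −0.15 with group means removed.

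The genes most like each member over the 49 arrays, among probe sets brighter than the median, were named without regard to function. For Gria1 they were Rasgrf1, a Ras activator that binds NMDA receptors (r = 0.91), and Slc12a5, the neuronal potassium chloride transporter (0.90), which also led for Grin2b (0.87 and, for Rasgrf1, 0.85). Gria2 was most like Ppp3ca, the catalytic subunit of calcineurin (0.91), and Gpd2 (0.89), and Grin2a most like the actin regulator Actr3 (0.87) and Ppp3ca (0.85). Gria3 was most like the kinesin Kif1b (0.91) and the potassium channel Kcnma1 (0.90). Likeness was weaker for Grin2c, with Csrp1 and Plekhb1 (both 0.78), for Gria4, with Clcn3 (0.66) and Akap2 (0.62), and for Grin2d, with Plcb2 (0.64) and Gadd45gip1 (0.60).

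Partners of the receptors were followed in fixed lists, where a gene counts as measured if a probe set was listed for it. Of 22 AMPA and kainate receptor auxiliary genes 14 were measured. In CA1 of rTg4510 against tTA mice 1 was called higher and 2 lower (background 10.6%). Their median was −0.16, beside −0.03 over all probe sets. Neto1, an auxiliary subunit of kainate and NMDA receptors, rose 2.95-fold (adjusted p = 0.0063), while Cnih2, an AMPA receptor auxiliary subunit of the cornichon family, fell by 0.72 (adjusted p = 0.00679) and Olfm1, a secreted AMPA receptor partner, fell by 0.58. In DG Cacng7, a transmembrane AMPA receptor regulatory protein, fell by 0.94 in rTg4510 against tTA mice (adjusted p = 0.024).

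Of 31 scaffold and trafficking genes 21 were measured. Dlg4, which the paper reports as decreased in CA1 at this age, had no listed probe set here. Of the 21 genes, 8 were lower and 0 higher in CA1 of rTg4510 against tTA mice (background 10.6% in either direction). Their median was −0.36, beside −0.03 over all probe sets. The leading ones were Camk2b, a subunit of CaMKII (1.80-fold lower, adjusted p = 0.00277), Shank3, a master scaffold of the postsynaptic density (1.81-fold lower, adjusted p = 0.0037), and Homer2, which links Shank proteins to metabotropic receptors (1.86-fold lower, adjusted p = 0.00408). In CA3 (background 1.13%) the 1 gene called was Camk2d, 1.54-fold higher (adjusted p = 0.0258), and in DG (background 0.782%) none was. Of the 6 measured of 11 glutamate supply and clearance genes, Slc1a1, the neuronal glutamate transporter, was lower in CA1 (1.52-fold, adjusted p = 0.014). None was called in CA3 or DG, where few probe sets were called at all. None of the 7 measured of 16 other glutamate receptors, and none of the 3 genes for RNA editing of receptor transcripts, was called between rTg4510 and tTA mice. The background was 10.6% in CA1, 1.13% in CA3 and 0.782% in DG.

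Between tTA and DN mice of DG the same lists moved both ways (background 16.7%, 9.44% lower). Of the auxiliary genes 2 rose, Cnih2 (1.01) and Cacng7 (0.92), and 5 fell, led by Olfm1 (2.10-fold, adjusted p = 4.44e-07), the AMPA receptor clustering pentraxin Nptx1 (1.95-fold) and the synaptic adhesion protein Lrrtm1 (−0.96). Of the scaffold genes Homer2 rose (0.83) and 4 fell, among them Dlg3, a scaffold of NMDA receptors (1.81-fold, adjusted p = 4.65e-05), Nsf, the ATPase that binds the Gria2 subunit (1.40-fold), and Camk2g (1.31-fold). Among the other glutamate receptors Grik2, a kainate receptor subunit, was 1.80-fold lower (adjusted p = 0.00776) and the dim Grm8 was higher (0.36). Slc1a2, the main astrocytic glutamate transporter, was 1.86-fold higher (adjusted p = 0.0142) and Srr, which makes the NMDA receptor co-agonist D-serine, 1.42-fold lower. None of the 3 editing genes was called (median −0.53).

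Markers of the captured neurons and of other cells also differed between genotypes in several contrasts. In CA1 of rTg4510 against tTA mice, where many of them were called, 1 of the 11 member probe sets was called. The median over the 8 member genes there was 0.01. In CA1 Wfs1 was 12.20 in DN, 11.41 in tTA and 10.16 in rTg4510 mice, called lower in all 3 contrasts, and Pou3f1 was 9.71, 9.28 and 7.46, called lower in rTg4510 against both other groups. Of 18 interneuron markers measured 11 rose in rTg4510 against tTA mice in CA1 (background 10.6%), among them Gad1 (0.90) and Gad2 (1.25), the enzymes of GABA synthesis. Against DN mice 11 rose as well (background 23.4%). The mean over this list ran from 5.86 to 6.34 in DN, 5.91 to 6.40 in tTA and 6.39 to 7.24 in rTg4510 mice. In the same layer 9 of 14 astrocyte, 11 of 19 microglia, 4 of 10 oligodendrocyte and 5 of 12 endothelial and mural markers rose in rTg4510 against tTA mice (background 10.6% in either direction). Their part in the receptor differences was not tested.

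Glial markers also differed between tTA and DN mice, where the background was 16.2% in CA1, 9.09% in CA3 and 16.7% in DG. Astrocyte markers were called higher for 6 of 14 genes in CA1, 8 in CA3 and 10 in DG, with 1 called lower in DG, and Gfap rose by 0.99, 1.52 and 2.53. Microglia markers were called higher for 6, 9 and 11 of 19 genes. The mean over the astrocyte list ran in DG from 7.21 to 7.91 in DN, 8.17 to 8.64 in tTA and 8.01 to 8.59 in rTg4510 mice, and over the microglia list from 4.64 to 5.08, 5.70 to 6.24 and 5.67 to 6.12. Between the 2 transgenic groups 0 astrocyte and 0 microglia markers were called in DG, where few probe sets were called at all (background 0.782%). Of the dentate granule markers Prox1 was 7.98 in DN, 6.09 in tTA and 7.02 in rTg4510 mice of DG, called lower in tTA than in DN mice and not called in rTg4510 mice (adjusted p = 0.0678 against DN). Calb1 was 10.29, 9.32 and 9.59 in the same groups. It was called lower than in DN mice in both tTA (adjusted p = 0.00013) and rTg4510 mice (adjusted p = 0.0019). Of the 7 markers of this list measured, 3 were called lower and 1 higher in tTA against DN mice of DG (background 16.7%). Against DN mice 2 were called lower and 1 higher in rTg4510 mice (background 8.86%). Their part in the receptor differences was not tested.

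Measures of RNA quality were set beside these results, with no test of their difference between groups. The difference of the 3-prime and 5-prime Actb control probe sets was −0.37 ± 0.23 in DN, −0.70 ± 0.16 in tTA and −0.48 ± 0.07 in rTg4510 mice of CA1, −0.45 ± 0.18, −0.64 ± 0.18 and −0.63 ± 0.14 in CA3, and −0.30 ± 0.15, −0.61 ± 0.12 and −0.52 ± 0.19 in DG. The same difference of the Gapdh control was 2.98, 3.04 and 3.04 in CA1, 3.08, 2.64 and 2.80 in CA3 and 3.32, 2.95 and 3.0 in DG, in the same order of genotypes. With the Actb difference as a covariate the calls between tTA and DN mice went from 5 to 1 in CA3 and from 6 to 2 in DG, where Gria2 and Grin2a kept theirs. In CA1 those of Gria1, Gria2, Grin2a and Grin2b held.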

How the data were processed

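RNA from laser-captured cell layers was amplified with the Ovation Pico WTA system, labelled with biotin and hybridised to HT-MG-430A arrays by the authors. The deposited values are log2 intensities after RMA background correction, quantile normalization and summary per probe set, as the table and the submitters' processing notes give them. The base 2 was read from their range (1.944 to 13.826), and array medians ran from 4.953 to 5.066. Identical columns were found in 0 pairs within groups. Of 22716 probe sets, 90 controls were left out. By the platform annotation 18003 had 1 gene symbol, 287 several and 4336 none listed here.

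Within each subfield limma 3.58.1 (R 4.3.3) was fitted to the 3 genotypes. Subfields, and genotype responses between them, were fitted over all 49 arrays with the mouse as a random block, since arrays with 1 mouse number came from 1 animal (consensus correlation 0.117, median of 47 pairs of arrays 0.12). Benjamini-Hochberg adjustment ran over all 22626 probe sets. For a gene with several probe sets, the brightest stands for it. Python 3.11.15, with pandas 2.3.3 and numpy 2.4.6, made the summaries, and the fits were tested on simulated data.

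The members and lists were chosen with earlier results of these data known. All member probe sets are named. Of the other glutamate lists up to 3 called genes in each direction with the lowest adjusted p are named, for rTg4510 against tTA mice and for tTA against DN mice in DG, and of marker lists up to 2 of the first measured genes. Genes most like a member are the 2 with the highest correlation over 49 arrays. Alternatives were another normalization, array weights, trended and robust variances, brighter probe sets only, the Actb covariate, other blocks, 2 genotypes only, the methods' LSD test and leaving out each mouse. The precision is limited by 5 or 6 mice per group.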

Additional observations from a re-analysis of the deposited data

Results flagged for a closer look

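Of 99 groups of arrays, 11 probe sets in 9 groups each, 4 held a mouse far from the rest of its group, where chance gives about 1 in 20. Gria3 was 9.21 in CA1 of tTA mouse4592, with the next mouse at 9.74. Gria4 was 4.66 in CA3 of DN mouse4883, with the next at 5.12. Gria2 was 10.50 in CA3 of rTg4510 mouse4621, with the next at 10.81. The dim second probe set of Grin2b was 3.42 in DG of rTg4510 mouse4549, with the next at 3.12.

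The response to genotype differed between subfields in 13 tests by limma. For rTg4510 against tTA mice the response in CA1 relative to DG was −0.43 for Gria2, −1.20 for Grin2a and −1.34 for Grin2b, and relative to CA3 it was −1.27 for Grin2a. For rTg4510 against DN mice, tested after the values had been seen, the response in CA1 relative to CA3 was −0.79 and −1.05 for the probe sets of Gria1, −0.67 for Gria2 and −1.33 for Grin2a. Relative to DG it was −0.93 and −0.78 for Gria1, −0.64 for Gria2, −1.26 for Grin2a and −1.39 for Grin2b. Both contrasts use the same rTg4510 arrays.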

How the results depend on the processing

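Of 64 called member differences 34 stayed called under every alternative, 38 when any 1 mouse was left out and 44 under all other settings, and 0 reversed. Of 216 counts under other settings 186 were within 1.5 times the reported count, and the following were not. The cause of these changes was not tested. For rTg4510 against tTA mice in CA1 (1 call) there were 3 after quantile normalization again, 2 with trended and robust variances, 2 over all arrays with the replicate block, 2 genes with the mean of probe sets, and 0 with the Actb covariate, with 2 genotypes only and with the methods' LSD test on log2 or anti-log values. In DG (0 calls) the replicate block gave 2. For rTg4510 against DN mice, array weights gave 2 in CA3 (0 calls), the replicate block 1 and 2 genotypes only 1, and in DG (2 calls, 1 gene) the Actb covariate gave 0 and the mean of probe sets 0 genes. For tTA against DN mice in CA3 (5 calls) the Actb covariate gave 1 and the LSD test 2 on log2 and 3 on anti-log values, and in DG (6 calls) the Actb covariate gave 2. Between CA3 and DG, array weights and a fixed replicate block each gave 4 in DN mice (2 calls), the fixed block 2 in tTA mice (1 call), and in rTg4510 mice (2 calls) array weights and the Actb covariate gave 1 and no replicate block 0. Between CA1 and DG, no replicate block gave 1 in tTA mice (2 calls) and array weights 1 in rTg4510 mice (2 calls). For the response of rTg4510 against tTA mice, brighter probe sets only and a fixed replicate block each gave 3 in CA1 minus CA3 (1 call), and array weights and no replicate block each gave 1 in CA1 minus DG (3 calls).

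When 1 mouse was left out, the calls for rTg4510 against tTA mice ran from 0 to 2 in CA1, 0 to 1 in CA3 and 0 to 1 in DG. For rTg4510 against DN mice they stayed at 7 in CA1 and ran from 0 to 1 in CA3 and 0 to 2 in DG (0 without DN mouse4797 or mouse4825 or rTg4510 mouse4666), and for tTA against DN mice from 7 to 8, 1 to 6 (1 without DN mouse4797) and 4 to 7. Between CA1 and CA3 they ran from 4 to 5 in DN, 1 to 3 in tTA (1 without mouse4626 or mouse4637) and 0 to 1 in rTg4510 mice, between CA1 and DG from 5 to 6, 1 to 2 and 0 to 4 (4 without mouse4549), and between CA3 and DG from 1 to 2, 1 to 1 and 0 to 3. The response of rTg4510 against tTA mice gave 0 to 2 in CA1 minus CA3 and 0 to 4 in CA1 minus DG, and that against DN mice 3 to 4 and 3 to 7 (3 without rTg4510 mouse4653).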
